A study of Mus musculus with 8 samples.

Results

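Transcripts that identify macrophages and other phagocytes were compared in melanomas grown in mice on 2 diets. The set was a written list of 39 genes, chosen by name with earlier results of these data known. It held surface and lysosomal proteins of macrophages, Fc receptors, subunits of the phagocyte NADPH oxidase, signaling proteins, and proteins shared by most leukocytes. Of the 39 genes, 37 were measured, among 24675 named genes, and Lyz2 and Lyn were not analysed here. No filter on low values was applied, so every measured gene of the set was kept. The tumors came from C57BL/6J female mice, 9 weeks of age at injection. Before injection the mice had received chow diet (CD) or the high fat, high cholesterol diet (HFHCD) for 2 weeks. B16-F10 cells, a mouse melanoma line, were injected under the skin of the flank, and tumors were taken at day 9. There were 4 CD and 4 HFHCD tumors, each on its own array of total RNA, and the diet was the only labeled difference between them. HFD is the name of the second diet in the titles, and HFHCD in the protocols.

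Macrophages recognize antibody-coated particles with Fc receptors, which signal through adaptor proteins carrying an activation motif (ITAM) to kinases such as Syk. Engulfed particles are exposed to oxidants made by the NADPH oxidase and to hydrolases of the lysosome. In tumors, macrophages derive largely from blood monocytes and take up dying cells and debris.

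Whole tumors were measured. A smaller share of phagocytes, less of these transcripts per phagocyte and a different share of other tissue therefore cannot be told apart. Values were deposited as log2 signals, with array medians from 5.04 to 5.21. Pairs of CD arrays correlated at 0.974 to 0.990 and pairs of HFHCD arrays at 0.991 to 0.994 over all genes. A level under 4.49, the 40th percentile of all values, is called dim. The tissue label was checked against 18 melanocyte lineage genes, whose mean was 10.68 to 10.82 in CD tumors and 10.82 to 10.90 in HFHCD tumors. The labels do not state that each tumor came from a separate mouse, so the tests describe the spread among the 8 samples, which may be technical in part.

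The leukocyte marker Ptprc, the oxidase gene Cybb and the MS4A family gene Ms4a6b were among the phagocyte transcripts that were lower in HFHCD tumors, and the CD tumors differed widely from each other. Of the 37 genes, 17 were lower on HFHCD at an unadjusted limma p under 0.05, against 3.91% of all genes, and 0 were higher, against 4.76% of all genes. The fold difference among the 17 ran from 1.3 (Ncf4, an oxidase subunit) to 3.76 (Ms4a6b, a membrane protein of the MS4A family). The median log2 fold change was -0.76 for the 37 genes and 0.00 for all genes, and 36 of the 37 had a negative value. In 9 genes every HFHCD tumor lay below every CD tumor, a pattern found in 2.27% of all genes, while the opposite pattern occurred in 0 of the 37 and in 2.93% of all genes. The mean was at least 2-fold lower in 10 of the 37 genes, against 0.527% of all genes. Because the list was written with earlier results known, these shares describe it and are no test. After Benjamini-Hochberg adjustment over all genes, limma called 0 of the 37 (smallest adjusted p = 0.448), and the methods' t-test, which called 9 without adjustment, also called 0.

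**Figure D1:**
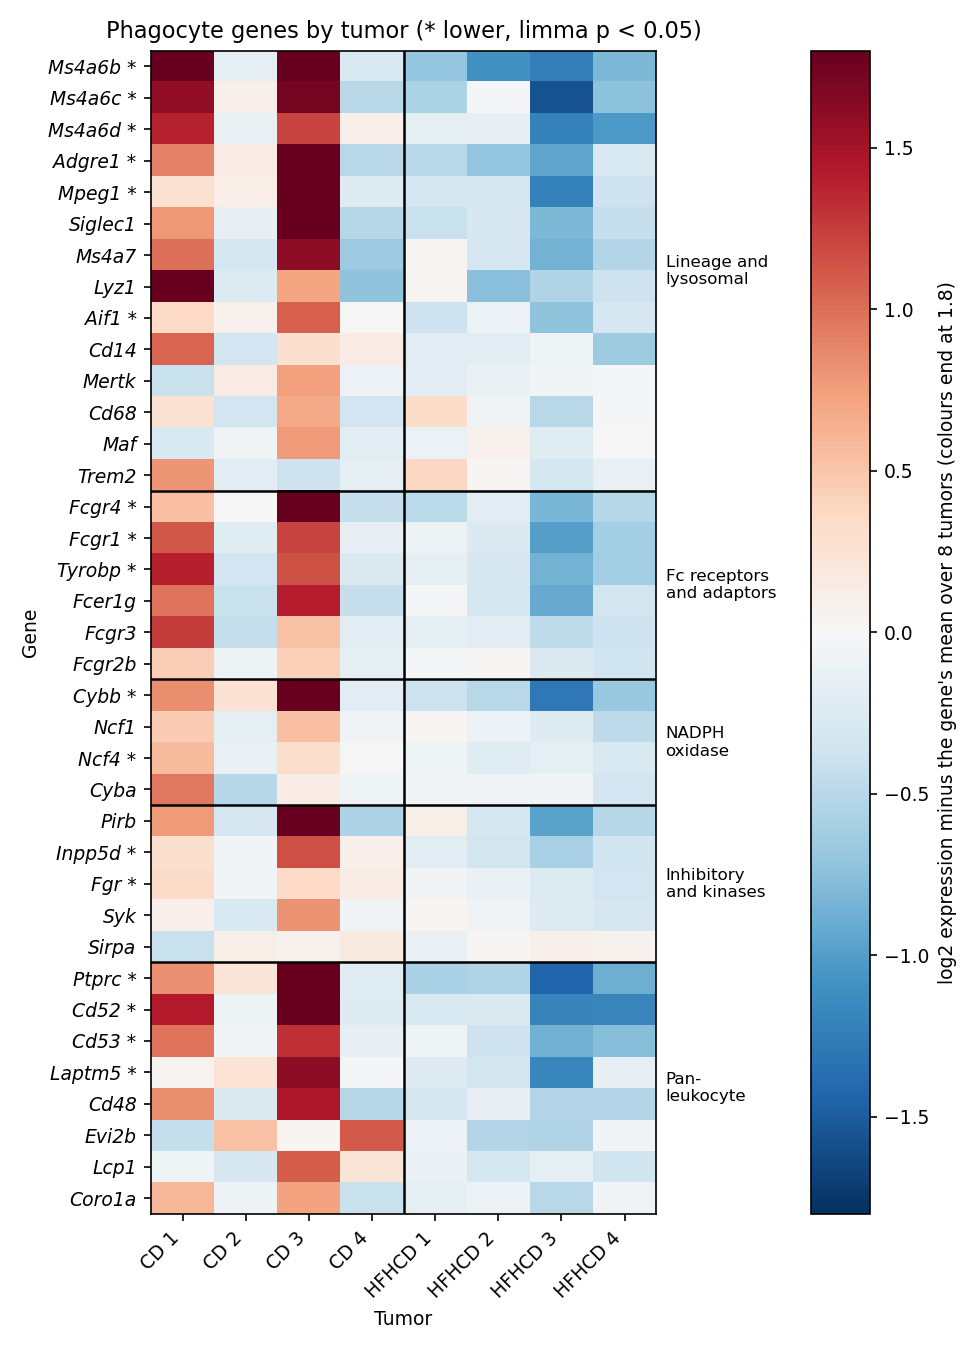
Level of each of the 37 genes in each of the 8 tumors, shown as the log2 difference from that gene's mean over all tumors, with genes grouped by role. CD 1 and CD 3 are the high columns, and HFHCD 3 was the lowest tumor in 23 genes, against 8.83% of all genes.

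The difference was carried unevenly by the tumors. CD 3 had the highest level in 25 of the 37 genes, against 13.1% of all genes. CD 1 was highest in 10, near its share of all genes (25.8%), and CD 4 in 2 (12.4%). CD 1 and CD 3 together held both top places in 29 genes, an order found in 7.49% of all genes. The SD among CD tumors exceeded that among HFHCD tumors in 37 of 37 genes, against 69.9% of all genes, with a median SD of 0.76 in CD and 0.25 in HFHCD. Against CD 2 and CD 4, the HFHCD mean was lower in 25 of the 37 genes (47.5% of all genes), and every HFHCD tumor was lower in 11 (12.4% of all genes). With CD 1 and CD 3 left out together, an alternative set because earlier results of these data showed both tumors to stand apart, 6 genes were called lower, and 5 of them were among the 17: Ms4a6b, Ptprc, Cybb, Inpp5d and Aif1. The sixth was Evi2b, with a dim HFHCD mean. The 6 of 37 stand beside 1776 lower genes (7.2%) of all genes in that comparison. The number called lower was 13 without CD 1 (7.16% of all genes), 13 without CD 3 (3.55%), 9 without HFHCD 3 (3.23%) and 12 without HFHCD 4 (2.67%). It was 24 without CD 2 (4.28%) and 26 without CD 4 (4.23%).

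Promoters are shown for 3 genes that were called lower under every alternative (Ms4a6b, Cybb and Inpp5d) and for Cd68 and Trem2, macrophage genes that were not called and whose levels relative to Ptprc are also given. Each window holds 250 bases before and 50 after the RefSeq start, read from build GRCm38.p6 and written along the gene's strand. Capitals mark GAGGAA, the core of sites for the myeloid factor PU.1, or its reverse complement TTCCTC. The windows are chr19:11518309-11518608 on the plus strand, chrX:9469275-9469574 on the minus strand, chr1:87620062-87620361 on the plus strand, chr11:69666121-69666420 on the minus strand and chr17:48346151-48346450 on the plus strand.
Ms4a6b: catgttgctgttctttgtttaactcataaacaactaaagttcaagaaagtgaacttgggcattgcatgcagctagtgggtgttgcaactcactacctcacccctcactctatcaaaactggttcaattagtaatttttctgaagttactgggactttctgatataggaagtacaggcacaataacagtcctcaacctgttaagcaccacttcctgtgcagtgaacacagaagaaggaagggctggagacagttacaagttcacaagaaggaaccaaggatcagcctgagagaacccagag
Cybb: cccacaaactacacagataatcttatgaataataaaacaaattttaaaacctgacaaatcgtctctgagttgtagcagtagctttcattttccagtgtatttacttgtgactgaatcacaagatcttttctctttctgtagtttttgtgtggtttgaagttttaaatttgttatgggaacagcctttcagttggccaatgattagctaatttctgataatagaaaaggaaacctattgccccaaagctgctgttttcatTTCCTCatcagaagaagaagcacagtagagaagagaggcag
Inpp5d: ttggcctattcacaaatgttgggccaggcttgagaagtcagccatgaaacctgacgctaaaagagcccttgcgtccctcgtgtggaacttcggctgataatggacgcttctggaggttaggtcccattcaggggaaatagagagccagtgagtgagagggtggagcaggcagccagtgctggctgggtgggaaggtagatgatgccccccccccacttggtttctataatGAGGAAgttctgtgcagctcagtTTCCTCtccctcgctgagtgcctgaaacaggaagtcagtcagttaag
Cd68: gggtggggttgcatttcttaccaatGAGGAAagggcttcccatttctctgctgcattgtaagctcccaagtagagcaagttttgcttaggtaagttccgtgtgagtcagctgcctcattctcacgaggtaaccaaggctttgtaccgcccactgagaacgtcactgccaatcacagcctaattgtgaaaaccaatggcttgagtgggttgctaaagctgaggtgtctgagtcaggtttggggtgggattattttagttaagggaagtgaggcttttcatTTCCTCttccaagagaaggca
Trem2: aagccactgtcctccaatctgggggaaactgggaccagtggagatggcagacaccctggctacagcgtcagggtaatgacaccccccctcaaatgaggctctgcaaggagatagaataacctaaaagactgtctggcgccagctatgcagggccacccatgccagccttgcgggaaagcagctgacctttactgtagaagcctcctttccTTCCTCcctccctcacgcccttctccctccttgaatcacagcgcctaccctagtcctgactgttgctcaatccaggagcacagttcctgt

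The letters GAGGAA occurred in Cybb, Inpp5d, Cd68 and Trem2, and not in the Ms4a6b window. Mertk, which was not called either, had a window without them. RefSeq promoters were matched for 28 of the 37 genes, of which 16 (57.1%) held this motif on either strand, against 31.3% of 27025 genes. It was present in 9 of 12 genes called lower and in 7 of 16 not called. A second motif, GAAA and GAAA separated by any 2 bases, is found in interferon-stimulated response elements. It was present in 4 of the 28 (14.3%), which were Aif1, Fcgr4, Cybb and Ncf1, against 3.99% of all genes, and overlapped GAGGAA in 0 of them. The TATA box letters, TATAAA, occurred in 2 of the 28 (7.14%), against 15.7% of all genes. These counts are a description of letters in a window, and no binding was measured.

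Among 14 measured lineage genes, 6 were lower and 0 higher, with a median log2 fold change of -0.82. Adgre1, which encodes an adhesion receptor used to mark mouse macrophages, had levels of 6.61, 5.86, 7.60 and 5.22 in CD tumors 1 to 4 and of 5.21, 5.02, 4.76 and 5.43 in HFHCD tumors 1 to 4. HFHCD 4 lay above CD 4, so the groups overlapped. Its mean was 6.32 ± 1.03 on CD and 5.10 ± 0.29 on HFHCD (SD, n = 4 each), 2.33-fold lower (limma p = 0.0195, exact permutation p = 0.0571). Mpeg1, a pore-forming protein of phagocyte compartments, had levels of 7.002, 6.85, 8.78 and 6.49 on CD and 6.41, 6.42, 5.52 and 6.35 on HFHCD. Every HFHCD tumor was below every CD tumor, by a narrow margin at CD 4. The fold was 2.15 lower (limma p = 0.0359, exact permutation p = 0.0286, the smallest that 4 against 4 tumors allow).

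Of the 4 MS4A genes, which encode membrane-spanning proteins, 3 were lower. Ms4a6b had levels of 8.09, 5.74, 7.97 and 5.63 on CD and 5.21, 4.82, 4.66 and 5.09 on HFHCD. CD 1 and CD 3 stood more than 2 log2 units above the other CD tumors, yet the groups did not overlap. It was 3.76-fold lower on HFHCD (limma p = 0.00708, exact permutation p = 0.0286). Ms4a6d had levels of 7.52, 6.01, 7.36 and 6.22 on CD and 5.97, 5.99, 4.93 and 5.10 on HFHCD. The groups did not overlap, by a narrow margin between CD 2 and HFHCD 2, and the fold was 2.43 lower (limma p = 0.00897, exact permutation p = 0.0286). Ms4a6c had levels of 6.67, 5.17, 6.80 and 4.58 on CD and 4.51, 5.05, 3.51 and 4.33 on HFHCD. The groups overlapped and the HFHCD mean was dim, with a fold of 2.74 lower (limma p = 0.0193, exact permutation p = 0.0571). Ms4a7 had a log2 fold change of -0.82 (limma p = 0.105, exact permutation p = 0.286). Ms4a6b, Ms4a6c and Ms4a6d are similar in sequence, so probes may not separate them fully.

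Aif1, the actin-binding protein Iba1 of macrophages and microglia, had levels of 5.67, 5.38, 6.37 and 5.30 on CD and 4.93, 5.19, 4.58 and 4.99 on HFHCD. The groups did not overlap, and the fold was 1.69 lower (limma p = 0.00955, exact permutation p = 0.0286). Siglec1, a sialic acid receptor of resident macrophages, had levels of 6.40, 5.48, 7.43 and 5.11 on CD and 5.22, 5.33, 4.81 and 5.21 on HFHCD. Its log2 fold change of -0.96 missed the threshold (95% interval -1.93 to 0.01, limma p = 0.052, exact permutation p = 0.114). Cd14, the lipopolysaccharide co-receptor, had levels of 5.63, 4.24, 4.86 and 4.72 on CD and 4.37, 4.37, 4.50 and 3.94 on HFHCD, with a dim HFHCD mean. Its log2 fold change was -0.57 (limma p = 0.0567, exact permutation p = 0.114).

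The other 8 lineage genes missed the threshold, with Cd68 and Trem2 among those of small difference. Cd68, a lysosomal membrane glycoprotein of macrophages, had levels of 8.66, 8.04, 9.06 and 8.03 on CD and 8.71, 8.32, 7.88 and 8.35 on HFHCD. HFHCD 1 lay above 3 of the CD tumors, and the log2 fold change was -0.13 (95% interval -0.71 to 0.44, limma p = 0.608, exact permutation p = 0.629). Trem2, a lipid-sensing receptor of macrophages, had levels of 7.01, 6.02, 5.83 and 6.03 on CD and 6.58, 6.22, 5.89 and 6.07 on HFHCD. Its log2 fold change was -0.03 (95% interval -0.60 to 0.54, limma p = 0.913, exact permutation p = 0.971). CD 1 was the highest tumor for Trem2, and the other CD tumors lay within or beside the HFHCD range. Maf, a macrophage transcription factor, and Mertk, a receptor for dying cells, had log2 fold changes of -0.12 and -0.18 (limma p = 0.569 and 0.402, exact permutation p = 0.886 and 0.629). Lyz1, a lysozyme whose probes may also bind Lyz2 transcripts, had a log2 fold change of -0.81 (limma p = 0.129, exact permutation p = 0.257).

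**Figure D2:**
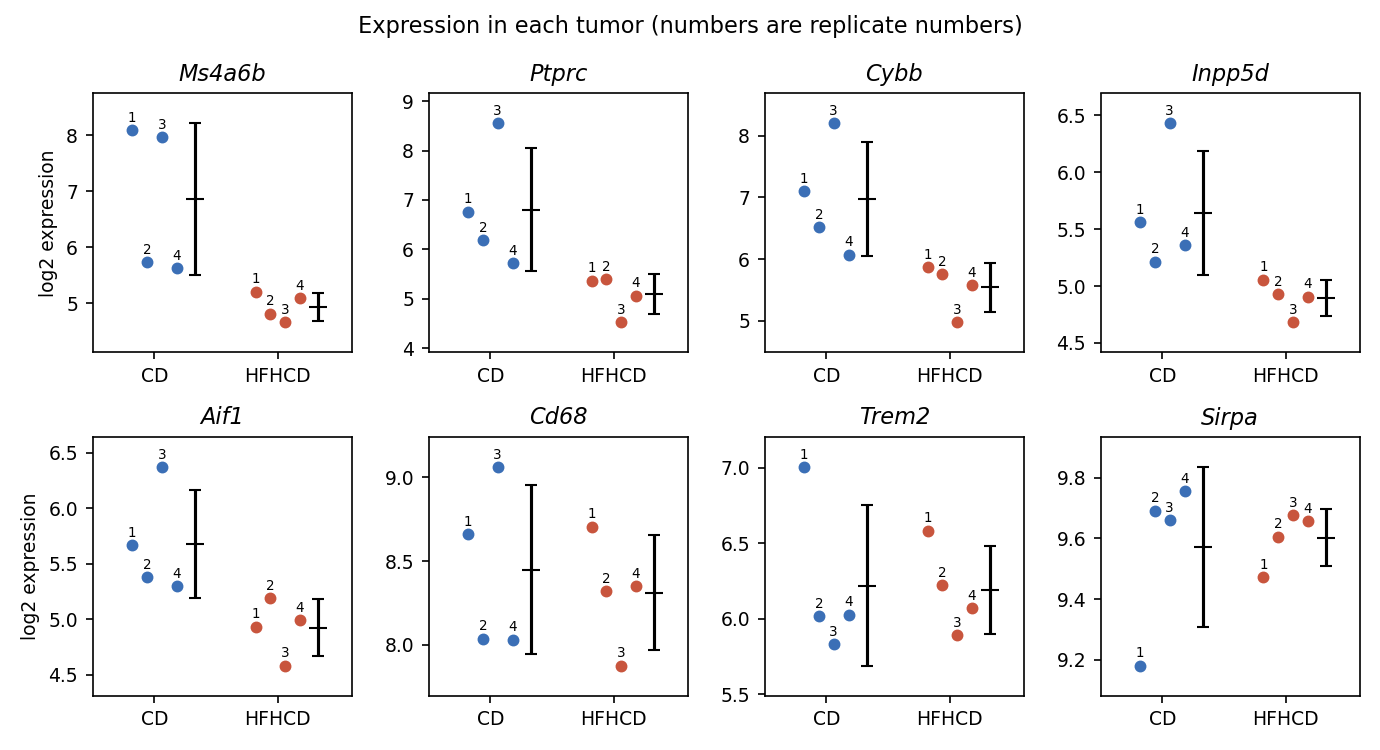
Deposited log2 level of selected genes in each tumor, with a point for each CD or HFHCD tumor (numbered by replicate) and the group mean ± SD (n = 4) beside them. Ptprc and Cybb show no overlap between diets, whereas Cd68 and Trem2 do.

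The Fc receptor genes and their adaptors gave 3 lower and 0 higher of 6. Fcgr1, the high-affinity IgG receptor, had levels of 7.67, 6.33, 7.77 and 6.41 on CD and 6.46, 6.29, 5.56 and 5.94 on HFHCD. HFHCD 1 exceeded CD 2 and CD 4, and the fold was 1.97 lower (limma p = 0.0221, exact permutation p = 0.114). Fcgr4, a receptor for IgG2 subclasses, had levels of 5.74, 5.21, 7.09 and 4.79 on CD and 4.72, 4.99, 4.38 and 4.68 on HFHCD. It was 2.02-fold lower with overlapping groups (limma p = 0.038, exact permutation p = 0.0571). Tyrobp, the ITAM adaptor DAP12 that signals for Trem2, had levels of 7.54, 5.80, 7.29 and 5.87 on CD and 5.97, 5.84, 5.29 and 5.51 on HFHCD. It was 1.96-fold lower, and HFHCD 1 exceeded CD 2 and CD 4 (limma p = 0.0345, exact permutation p = 0.143).

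Fcer1g, the ITAM-bearing gamma chain needed by the activating Fc receptors, had levels of 9.21, 7.84, 9.66 and 7.82 on CD and 8.21, 7.93, 7.34 and 7.91 on HFHCD. CD 2 and CD 4 lay within the HFHCD range, and the log2 fold change was -0.79 (95% interval -1.71 to 0.14, limma p = 0.0866, exact permutation p = 0.286). Fcgr2b, the inhibitory IgG receptor, and Fcgr3, an activating one, had log2 fold changes of -0.31 and -0.59 (limma p = 0.0912 and 0.0975, exact permutation p = 0.2 and 0.286). Fcgr2b, Fcgr3 and Fcgr4 are neighbors with similar sequences, so their values may share signal. The calls of Fcgr1, Fcgr4 and Tyrobp were each lost under 7 of 16 alternatives, including without CD 1, without HFHCD 3 and without HFHCD 4 for all 3 genes, without CD 3 for Fcgr1 and Tyrobp, and without HFHCD 1 for Fcgr4.

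Of 4 NADPH oxidase genes, 2 were lower and 0 higher. Cybb, the catalytic subunit gp91phox, had levels of 7.10, 6.52, 8.20 and 6.07 on CD and 5.87, 5.75, 4.97 and 5.58 on HFHCD. Every HFHCD tumor was below every CD tumor. Its mean was 6.97 ± 0.92 on CD and 5.54 ± 0.40 on HFHCD (SD, n = 4 each), 2.69-fold lower (limma p = 0.00635, exact permutation p = 0.0286, adjusted p = 0.448). Ncf4, the cytosolic subunit p40phox, had levels of 5.74, 5.03, 5.49 and 5.17 on CD and 5.09, 4.95, 4.99 and 4.90 on HFHCD. It was 1.3-fold lower with overlap at CD 2 (limma p = 0.0323, exact permutation p = 0.0571), a call lost under 8 of 16 alternatives, among them without CD 1, CD 3, HFHCD 2, HFHCD 3 or HFHCD 4. Cyba, the membrane partner p22phox of Cybb, had a log2 fold change of -0.24 (limma p = 0.386, exact permutation p = 0.6), and Ncf1, the organizer subunit p47phox, one of -0.39 (limma p = 0.06, exact permutation p = 0.171).

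Of 5 measured signaling genes, 2 were lower and 0 higher. Inpp5d, the inositol phosphatase SHIP1 that restrains Fc receptor signals, had levels of 5.56, 5.22, 6.43 and 5.36 on CD and 5.06, 4.93, 4.68 and 4.91 on HFHCD. The groups did not overlap, and the fold was 1.68 lower (limma p = 0.0115, exact permutation p = 0.0286). Fgr, a Src family kinase of myeloid cells, had levels of 4.89, 4.50, 4.91 and 4.69 on CD and 4.50, 4.43, 4.30 and 4.21 on HFHCD. It was 1.31-fold lower with a dim HFHCD mean and overlap between CD 2 and HFHCD 1 (limma p = 0.00881, exact permutation p = 0.0571). Syk, the kinase recruited to ITAMs, had a log2 fold change of -0.28 (limma p = 0.208, exact permutation p = 0.286). Pirb, an inhibitory receptor with near-identical relatives, had one of -0.85 (limma p = 0.105, exact permutation p = 0.229). Sirpa, the inhibitory receptor for CD47, had the single positive value of the set, 0.03 (95% interval -0.27 to 0.33, limma p = 0.82, exact permutation p = 0.971), with means of 9.57 ± 0.26 on CD and 9.60 ± 0.09 on HFHCD (SD, n = 4 each).

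The pan-leukocyte genes gave 4 lower and 0 higher of 8. Ptprc, the leukocyte common antigen CD45, had levels of 6.77, 6.18, 8.55 and 5.72 on CD and 5.36, 5.40, 4.52 and 5.06 on HFHCD. The groups did not overlap, and CD 3 stood well above the other CD tumors. Its mean was 6.81 ± 1.24 on CD and 5.09 ± 0.41 on HFHCD (SD, n = 4 each), 3.29-fold lower (limma p = 0.00933, exact permutation p = 0.0286, adjusted p = 0.463). Cd52, a small glycoprotein of leukocyte surfaces, had levels of 7.92, 6.40, 8.32 and 6.25 on CD and 6.22, 6.23, 5.28 and 5.30 on HFHCD. The gap between CD 4 and HFHCD 2 was narrow, and the fold was 2.76 lower (limma p = 0.0129, exact permutation p = 0.0286). Cd53, a leukocyte tetraspanin, had levels of 7.86, 6.82, 8.20 and 6.74 on CD and 6.81, 6.52, 6.02 and 6.12 on HFHCD. It was 2.05-fold lower, with HFHCD 1 above CD 4 (limma p = 0.0125, exact permutation p = 0.0571). Laptm5, a lysosomal membrane protein of blood cells, had levels of 8.20, 8.38, 9.75 and 8.13 on CD and 7.91, 7.81, 6.97 and 7.99 on HFHCD. The groups did not overlap, and the fold was 1.92 lower (limma p = 0.029, exact permutation p = 0.0286). Lcp1 and Coro1a, which bind actin, and Cd48, an adhesion protein, had log2 fold changes of -0.48, -0.42 and -0.76 (limma p = 0.0958, 0.117 and 0.0797, exact permutation p = 0.114, 0.229 and 0.2). Evi2b, a membrane protein of blood cells, had a log2 fold change of -0.62 (limma p = 0.063, exact permutation p = 0.114), and of -1.12 without CD 1 and CD 3, the high tumors in most other genes but not in this one. The HFHCD means of Evi2b (4.24) and Cd48 (3.78) were dim.

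**Figure D3:**
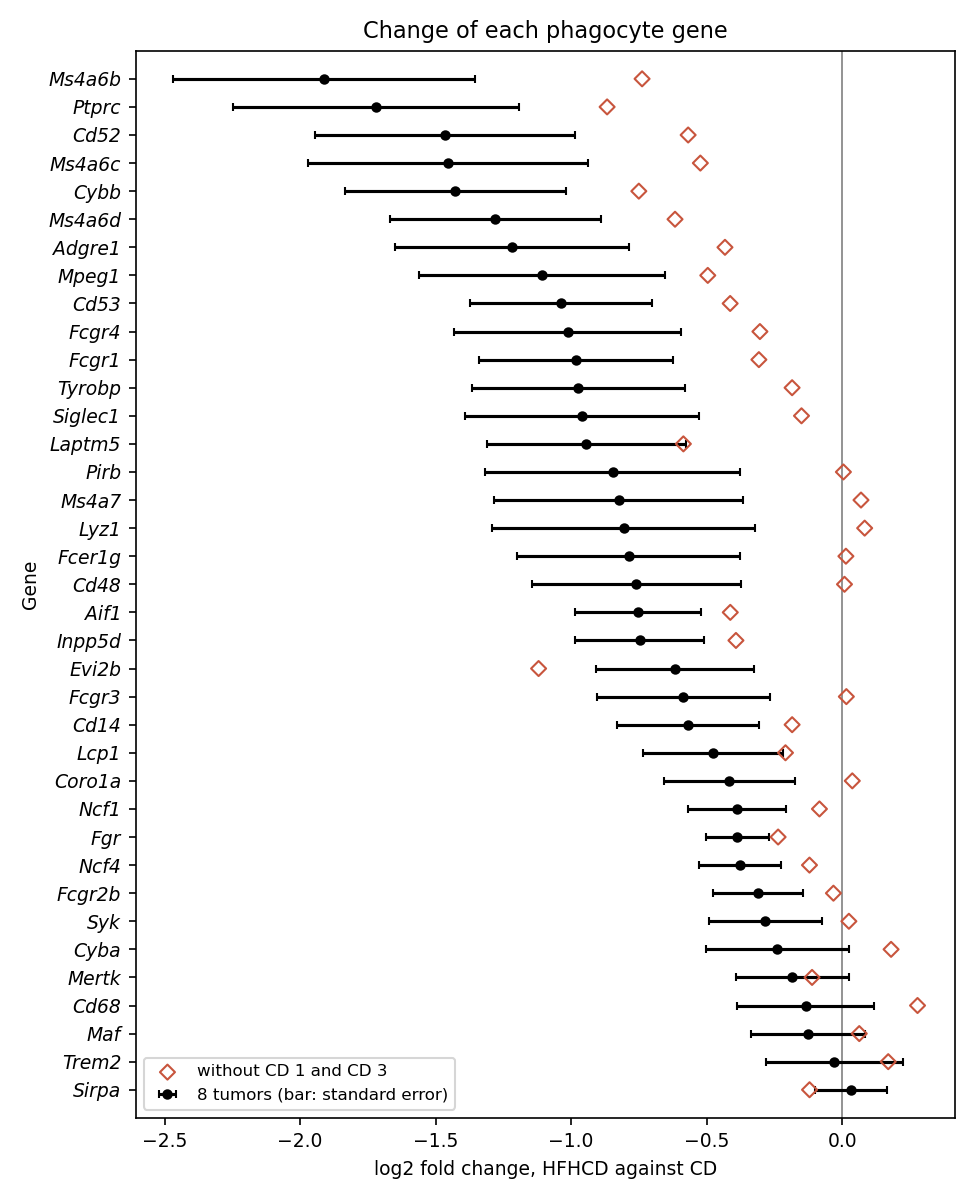
Log2 fold change (HFHCD minus CD) of each of the 37 genes with its limma standard error as a bar, and the same value without CD 1 and CD 3 as an open diamond. All but Sirpa lie below 0 with 8 tumors, and the median moved from -0.76 to -0.18 without CD 1 and CD 3.

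The genes did not change by equal amounts within a tumor. In 7 macrophage genes, chosen after their values were known, the level was taken relative to Ptprc in the same tumor, the pan-leukocyte gene with the largest fall of the 8. Cd68 minus Ptprc was 1.89, 1.85, 0.51 and 2.31 in CD tumors and 3.34, 2.92, 3.35 and 3.29 in HFHCD tumors, a change of 1.58. Trem2 minus Ptprc was 0.24, -0.17, -2.72 and 0.30 in CD tumors and 1.22, 0.82, 1.37 and 1.01 in HFHCD tumors, a change of 1.69. Both pairs of groups were fully separate. These differences are a description, with no test, because the genes were picked for them. With the mean of the 8 pan-leukocyte genes as reference, the change was 0.79 for Cd68 and 0.90 for Trem2, with the groups still separate. The changes of the other 5 genes turned negative. This reference includes Ptprc, and all 8 of its genes had negative log2 fold changes, so it is no independent check. Without CD 1 and CD 3 the changes of Cd68 and Trem2 relative to Ptprc were 1.15 and 1.04.

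**Figure D4:**
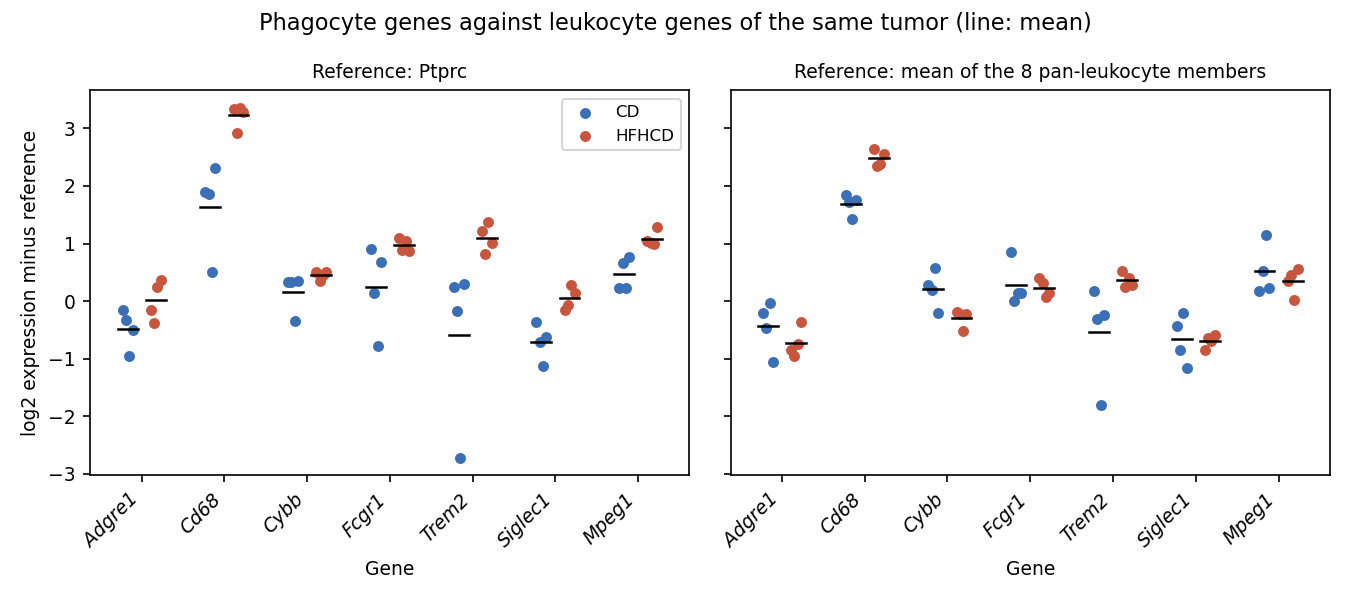
Level of macrophage genes relative to leukocyte reference genes in each tumor (log2 difference). Cd68 and Trem2 are higher relative to the reference in every HFHCD tumor than in every CD tumor with either reference.

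Other genes of the same pathways were lower in part, and their counts stand beside 3.91% lower and 4.76% higher of all genes. Of 31 other monocyte and macrophage genes, 11 were lower and 0 higher, among them the protease gene Ctss (log2 fold change -1.59), the growth factor receptor gene Csf1r (-0.79), the monocyte chemokine receptor gene Ccr2 (-1.34) and the scavenger receptor gene Mrc1 (-0.91). The list of phagocytic and opsonin receptors, which also holds ligands, gave 8 lower and 0 higher of 21. Among these were Cd36 at -0.62, Itgam at -1.26, the ligand gene Pros1 at -0.43 and Itgb2 at -0.74. Other signaling proteins of Fc and ITAM receptors gave 5 lower and 0 higher of 26, with Plcg2 at -0.41, Vav3 at -0.56, Pik3cg at -0.49 and Btk at -0.47. The list around the oxidase gave 1 lower and 0 higher of 11, and this was Vav1 (-0.51), an exchange factor that activates Rac and no oxidase subunit, so none of its other genes was called. Other pan-leukocyte genes gave 9 lower and 0 higher of 30, with Dock8 at -0.75, Hcls1 at -0.81, Plek at -0.95 and Myo1f at -0.70. Log2 fold changes were positive in 5, 5, 7, 4 and 2 genes of these lists in the order named, and in 12502 of all 24675 genes. Without CD 1 and CD 3 these lists gave 5, 3, 7, 2 and 3 lower genes in the same order, beside 7.2% of all genes. When 1 tumor was left out, the share of all genes ran from 2.56% (without HFHCD 1) to 7.16% (without CD 1). Leaving out 1 tumor, the monocyte list gave 6 (without CD 1, CD 3 or HFHCD 3) to 17 (without CD 2). The phagocytic list gave 4 (without HFHCD 3 or HFHCD 4) to 10. The signaling list gave 2 (without HFHCD 1, HFHCD 3 or HFHCD 4) to 8 (without CD 1), the list around the oxidase 0 (without HFHCD 1, HFHCD 3 or HFHCD 4) to 2 (without CD 1 or CD 2), and the pan-leukocyte list 5 (without CD 3 or HFHCD 3) to 15 (without CD 2 or CD 4).

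Markers of some other cell types, but not of all, moved with the phagocyte genes. Their counts stand beside 3.91% lower and 4.76% higher of all genes. The shares lower were 6.25% of T cell, 5.88% of endothelial and 9.09% of mast cell markers, 1 gene in each list. The 18 fibroblast markers had means of 7.44, 6.58, 7.71 and 6.61 in CD tumors and 6.06 to 6.18 in HFHCD tumors, with 12 lower. The 20 skeletal muscle markers had means of 6.48, 5.66, 6.83 and 5.17 in CD tumors and 4.92 to 5.28 in HFHCD tumors, with 14 lower. In both lists CD 1 and CD 3 were the high tumors, as they were for the 37 phagocyte genes, whose means were 6.91, 6.11, 7.32 and 6.05 on CD and 6.05, 5.96, 5.55 and 5.79 on HFHCD. CD 1 and CD 3 were also the top tumors in the dendritic cell, T cell, NK cell, adipocyte and mast cell means. They were not both the top tumors in the endothelial, keratinocyte, neutrophil, B cell, erythroid and melanocyte means. Dendritic cell markers gave 7 lower of 18, including the MHC class II genes H2-Aa (log2 fold change -2.04) and H2-Ab1 (-1.91). T cell markers had means of 4.55 to 5.46 on CD and 4.49 to 4.69 on HFHCD, with 1 lower of 16, and NK cell markers gave 2 lower of 11. Neutrophil markers gave 0 lower of 16, of which 13 were dim on both diets, and B cell markers 0 of 9, all 9 dim. Endothelial markers gave 1 lower of 17, with means of 6.05, 6.02, 6.25 and 6.38 in CD tumors and 5.96 to 6.22 in HFHCD tumors, so that CD 4 and not CD 1 was high. Keratinocyte markers gave 0 lower of 15, with CD means of 4.76, 5.50, 6.55 and 4.53. Mast cell markers gave 1 lower of 11, adipocyte markers 2 of 10 and erythroid markers 0 of 6. Of the melanocyte genes 3 were higher and 0 lower. The part of muscle, fibroblast and other cell content in the phagocyte differences was not tested.

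**Figure D5:**
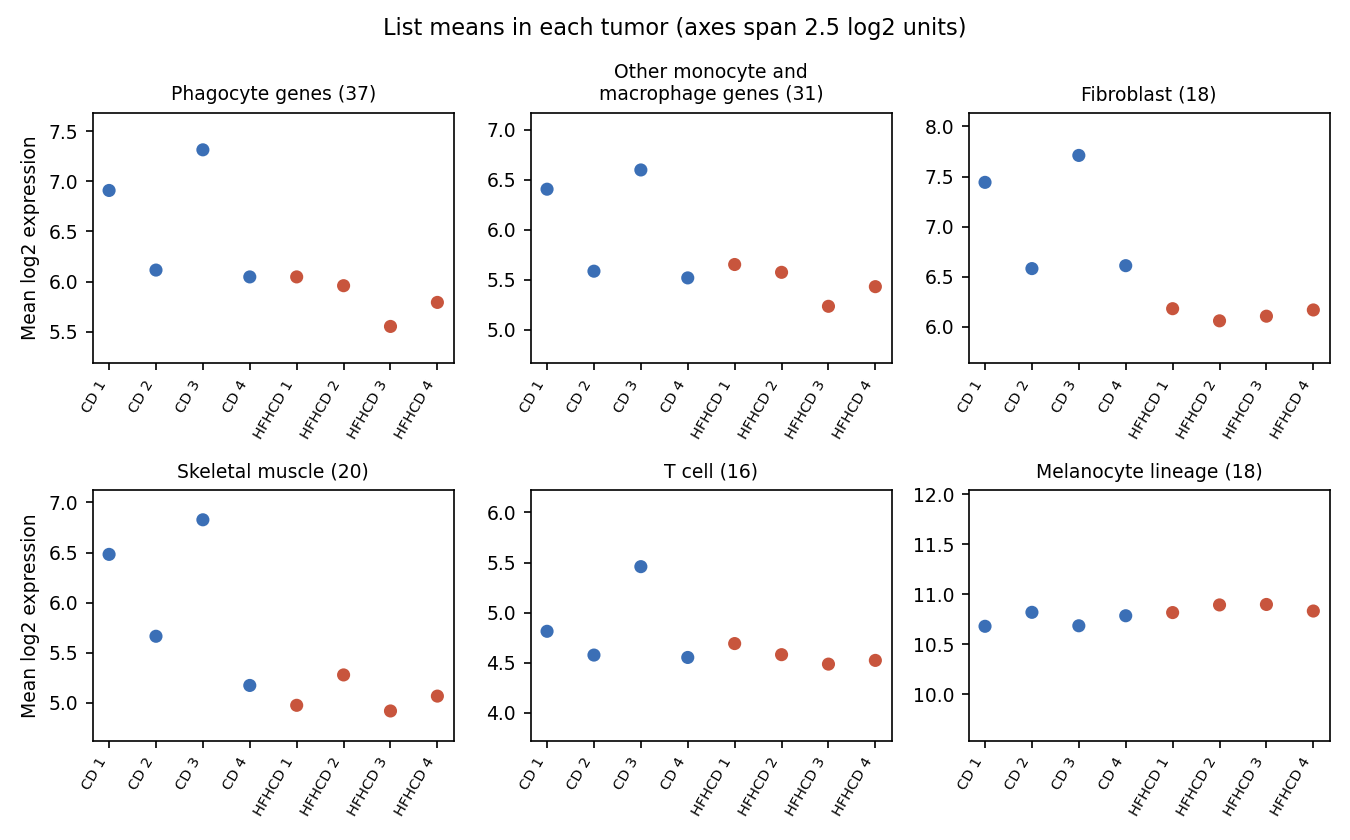
Mean log2 level of the phagocyte genes and of marker lists for other cell types in each tumor, on axes that each span 2.5 log2 units. The lists shown are highest in CD 1 and CD 3, except the melanocyte list, which stays between 10.68 and 10.90.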

How the data were processed

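The authors deposited RMA log2 values of Affymetrix arrays, 1 array per tumor, and their processing notes list Affymetrix Expression Console and RMA, versions not given in the sources used here. RMA corrects background and makes the distributions of arrays alike, so a shift shared by all genes is not visible. Of 25429 probe sets, 24675 carried 1 symbol and 754 none. HFHCD was compared with CD with limma 3.58.1 (lmFit, then eBayes) under R 4.3.3 over all named genes, with no covariate. A gene was called at an unadjusted two-sided p under 0.05, the methods' threshold, and p-values were adjusted by Benjamini-Hochberg over all genes. Each gene also had an exact permutation test, two-sided, over the 70 assignments of tumors to diets. The methods' t-test was run on the same values.

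The genes and lists were chosen with earlier results of these data known. Values by tumor are given for every called gene and for Adgre1, Cd14, Cd68, Trem2, Fcgr1, Fcer1g, Tyrobp, Cybb, Ptprc and Siglec1, and up to 4 genes of each further list were taken by smallest p. The 3 promoter motifs were chosen later and counted on both strands in Python 3.11.15. The limma step was tested on simulated data. The simulated noise was independent between genes and equal in SD on both diets, so it does not cover the wider CD spread seen here. Alternatives were median centring, quantile normalization, a filter on dim genes, a trended and robust prior, array weights, the replicate block, leaving out each array, and leaving out both CD 1 and CD 3, known from earlier results to stand apart. The levels relative to Ptprc, the second leukocyte reference and the alternatives for further lists were added after the data were seen. Precision is limited by the number of tumors.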

Additional observations from a re-analysis of the deposited data

Results flagged for a closer look

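In 5 of 74 groups of 4 tumors, 1 tumor stood apart from the other 3 by more than Dixon's critical share of the group's range. Chance flags about 1 in 20 groups. Mpeg1 was 5.52 in HFHCD 3, against 6.35 to 6.42 in the other HFHCD tumors. Laptm5 was 9.75 in CD 3, against 8.13 to 8.38 in the other CD tumors. In CD 1, Trem2 was 7.01, against 5.83 to 6.03, and Sirpa was 9.18, against 9.66 to 9.75. Cyba was 7.62 in HFHCD 4, against 7.92 in the other HFHCD tumors.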

How the results depend on the processing

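Of the 17 genes called lower, 5 (Aif1, Cybb, Inpp5d, Ms4a6b and Ptprc) were called under all 16 alternatives and 12 lost the call under at least 1. The number lower was 20 with median centring (3.08% of all genes) or quantile normalization (4.43%), and 18 with the filter on dim genes (4.27% of the genes kept). It was 19 with the trended and robust prior (3.76%), 13 with array weights (6.41%) and 9 by the methods' t-test (3.39%). Without CD 1 and CD 3 it was 6 (7.2%). It ran from 9 to 26 when 1 tumor was left out, while the share of all genes ran from 2.56% to 7.16%. Without HFHCD 3, 9 of the 17 calls were kept. The calls of Fcgr1, Fcgr4, Tyrobp and Ncf4 were lost, as given above. Also lost were the calls of Adgre1, Laptm5, Mpeg1 and Ms4a6c, at log2 fold changes of -1.10, -0.71, -0.89 and -1.17. That of Mpeg1 was also lost without HFHCD 4 (-1.17), and that of Ms4a6c without CD 1 (-1.17) or CD 3 (-1.12). The number of genes called among all, 2141, was 3510 with array weights and 3586 without CD 1 and CD 3, and ran from 1485 (without HFHCD 1) to 3709 (without CD 1) when 1 tumor was left out. The median log2 fold change ran from -1.06 to -0.51 when 1 tumor was left out and was -0.18 without CD 1 and CD 3. Leaving out 1 tumor, the lineage genes gave 3 to 9 lower, Fc receptors 0 to 5, oxidase genes 1 to 3, signaling genes 2 to 3 and pan-leukocyte genes 3 to 6.

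Without CD 1 and CD 3, 12 of the 36 negative log2 fold changes turned positive, none of them of a called gene: Cd68, Trem2, Fcer1g, Lyz1, Maf, Ms4a7, Fcgr3, Cyba, Pirb, Syk, Coro1a and Cd48. Maf and Mertk also turned without CD 3, and Cyba without CD 1 or with array weights, while that of Sirpa turned negative in these last 2 settings and without CD 1 and CD 3. Among genes given by tumor, the values were for Cd68 (0.0655 with array weights, 0.28 without CD 1 and CD 3, and -0.27 to 0.0700 leaving out 1 tumor), Trem2 (0.13, 0.17, and -0.16 to 0.23) and Fcer1g (0.0139 without CD 1 and CD 3). With the mean of the 8 pan-leukocyte genes in place of Ptprc, the relative change turned negative for Adgre1 (-0.29), Cybb (-0.50), Fcgr1 (-0.0517), Mpeg1 (-0.18) and Siglec1 (-0.0314). The cause was not tested. With the replicate block 19 genes were lower (3.98% of all genes), 15 of the 17 among them. The deviations of tumors of the same number correlated at 0.269, -0.0293, -0.265 and 0.0507. The labels name no pairing, and these correlations cannot show whether such tumors shared a batch.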
